A study of Homo sapiens with 4 samples.

Results

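The contacts described here are those of the NKX2-2 locus in A673, an established line of Ewing sarcoma in which the fusion of EWSR1 with FLI1 (EWS-FLI1) drives the tumour. They comprise every pair of anchors with an anchor overlapping chr20:21480000-21505000 (hg19). Pairs were taken by this rule of position alone, but the window itself was chosen with earlier results of these data known. Of 1125468 anchor pairs with a count in the series, 108 met this rule, and they held 651 paired-end tags (PETs), each PET being a ligated read pair that joins both anchors. The counts come from SMC1 HiChIP, which joins neighbouring chromatin ends by ligation and keeps those precipitated with an antibody to the cohesin subunit SMC1. The study set 2 STAG2-null libraries against 2 wild-type libraries of the same line and asked which loops differ with STAG2. The STAG2-null cells were edited with Cas9 and grown as single-cell clones. The labels name no clone for either library, and clone and genotype cannot be told apart. Nor do they say whether the libraries of a genotype were separate cultures, so a p-value covers the spread between these libraries alone, which may be technical. SMC1 contacts do not measure the STAG2 transcript or protein, so the knockout itself was not checked.

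NKX2-2 is a homeobox transcription factor of the NK2 family that patterns progenitors of the ventral neural tube and acts in pancreatic endocrine cells. In Ewing sarcoma it is a known target of the EWS-FLI1 fusion protein and serves as a diagnostic marker. EWS-FLI1 binds tandem GGAA repeats, which act as enhancers in these tumours. Cohesin extrudes chromatin loops and holds them, often between sites bound by CTCF, and STAG1 and STAG2 are alternative subunits of the complex.

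The promoter is shown because the window was set for this gene and because EWS-FLI1 recognises GGAA. RefSeq lists 2 NKX2-2 promoters on assembly GRCh38.p14, a later build than that of the contacts. The first covers chr20:21522690-21522939 on the minus strand, 250 bases up to the start, with GGAA in capitals.
NKX2-2 promoter: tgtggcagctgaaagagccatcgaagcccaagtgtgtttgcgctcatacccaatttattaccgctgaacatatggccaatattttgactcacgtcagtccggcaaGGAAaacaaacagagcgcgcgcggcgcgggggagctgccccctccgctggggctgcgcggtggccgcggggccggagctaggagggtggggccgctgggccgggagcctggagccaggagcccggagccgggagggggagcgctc
It held 1 GGAA, 145 bases before the start, and 0 of the reverse complement TTCC. At least 1 GGAA on either strand occurred in 92.7% of 35116 RefSeq promoters of the same length, so its presence is usual. GGAAGGAA, and GGAA repeated 3 times in tandem, searched on both strands, were in neither NKX2-2 promoter, and they occurred in 3.06% and 0.0712% of all promoters. Copies of the shorter motif inside a longer one were counted for both. G and C made up 66.0% of the printed promoter, against a median of 58.0% over all promoters. The protein-coding genes next to NKX2-2 in RefSeq were NKX2-4, a homeobox relative, at lower coordinates and PAX1, a paired-box factor of the developing skeleton, at higher coordinates. Beyond them came the exoribonuclease gene XRN2 and the centrosomal gene KIZ on the lower side, and the forkhead factor gene FOXA2 on the higher side. No hg19 gene annotation was used here, so partner anchors are given by position and not by gene.

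Sequencing gave between 661881 and 765017 PETs per library. Chromosome 20 below 30 Mb, the region of the window, held 12401 pairs and took 0.971 ± 0.00803% of all PETs in STAG2-null against 1.31 ± 0.0162% in wild-type libraries (SD, n = 2). The log2 ratio was -0.43. Contacts of the locus were therefore compared both relative to the library and relative to this region.

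The NKX2-2 window had fewer SMC1 contacts in STAG2-null cells when libraries were compared by their totals. It held 133 and 121 PETs in STAG2-null 1 and 2 and 179 and 218 in wild-type 1 and 2. Per 1000000 PETs after TMM scaling, these were 195.5 and 172.3 against 271.5 and 284.6 normalised PETs. Both STAG2-null libraries lay below both wild-type libraries, as they did in 22.1% of all tiles. The group means were 184 ± 16.4 and 278 ± 9.30 normalised PETs (SD, n = 2). With the genome laid out in tiles of 25 kb, of which the window is exactly 1, the window fell by 0.60 ± 0.14 (SE) on the log2 scale, a ratio of 0.661, with an adjusted p of 0.00432 over 39870 tiles by the quasi-likelihood test of edgeR (Benjamini-Hochberg). Over all these tiles 2.9% were called in either direction and 1.68% as lower, at an adjusted p under 0.05. Calls were more frequent at this depth, at 12.1% of the 1237 tiles whose total lay within 1.25 times that of the window. With 1 library left out, its group has a single library, which is assumed to vary like the other group, and fewer tiles pass over the genome (0, 149, 134 and 1079 without STAG2-null 2, wild-type 1, wild-type 2 and STAG2-null 1, against 1155). The window's call was lost without STAG2-null 2 (log2 -0.51, adjusted p = 0.542 in edgeR), without wild-type 1 (-0.63, 0.116) and without wild-type 2 (-0.57, 0.232), and it was kept without STAG2-null 1 (-0.69, 0.00874), while its log2 change stayed between -0.69 and -0.51 and its unadjusted p under 0.05 in all 4. DESeq2 gave -0.60 with an adjusted p of 0.0672.

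Relative to the surrounding 30 Mb the window did not pass the test. Per 10000 PETs of the region it held 199.4 and 179.6 in STAG2-null 1 and 2, against 204.9 and 219.7 in wild-type 1 and 2. The values of the 2 groups did not overlap, and how many of all tiles lie apart on this scale was not counted. Their 95% Wilson intervals overlapped, from 168.5 to 235.9 and 150.5 to 214.1 against 177.3 to 236.8 and 192.7 to 250.5. These intervals cover counting error only. The means were 189 ± 14.1 and 212 ± 10.5 (SD, n = 2). An exact permutation test of 2 against 2 libraries cannot give a two-sided p below 0.333, the value found on both scales. In the fit with each 30 Mb bin scaled to its own total, the window stood at -0.17 ± 0.13 (SE, adjusted p = 0.734 in edgeR), where 0.145% of tiles were called. Of the -0.60 on the library scale, the region's own ratio of -0.43 is the part that this scaling took out.

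**Figure D1:**
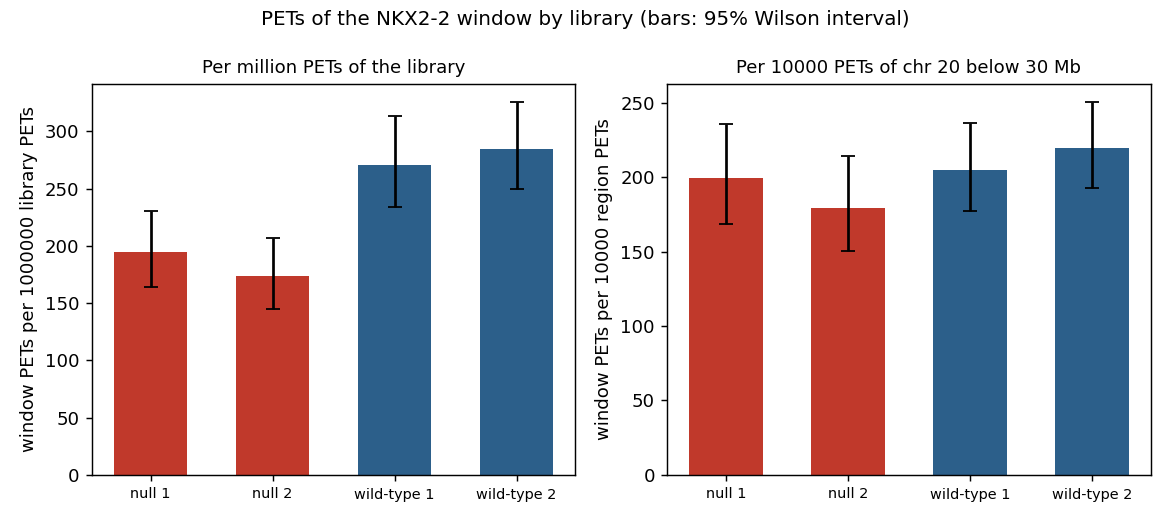
PETs of the NKX2-2 window in each library, per 1000000 PETs of the library before TMM scaling (left) and per 10000 PETs of chromosome 20 below 30 Mb (right); error bars are 95% Wilson intervals. The STAG2-null bars lie below the wild-type bars in both panels, and in the right panel the values run from 179.6 to 219.7 and all intervals overlap.

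Most tiles of this part of chromosome 20 were lower in STAG2-null cells. Of its 445 tiles, 89.9% had a log2 change below 0 and the median was -0.48, against 0.01 over all tiles. The window lay inside this spread, with 159 tiles (35.7%) lower than it. The test called 44 of the 445 as lower and 0 as higher in edgeR, with 151 past an unadjusted p of 0.05 in either direction. After scaling to the region the median was -0.05 and 0 tiles were called (30 unadjusted). Only 15 tiles of the region held more PETs than the window.

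**Figure D2:**
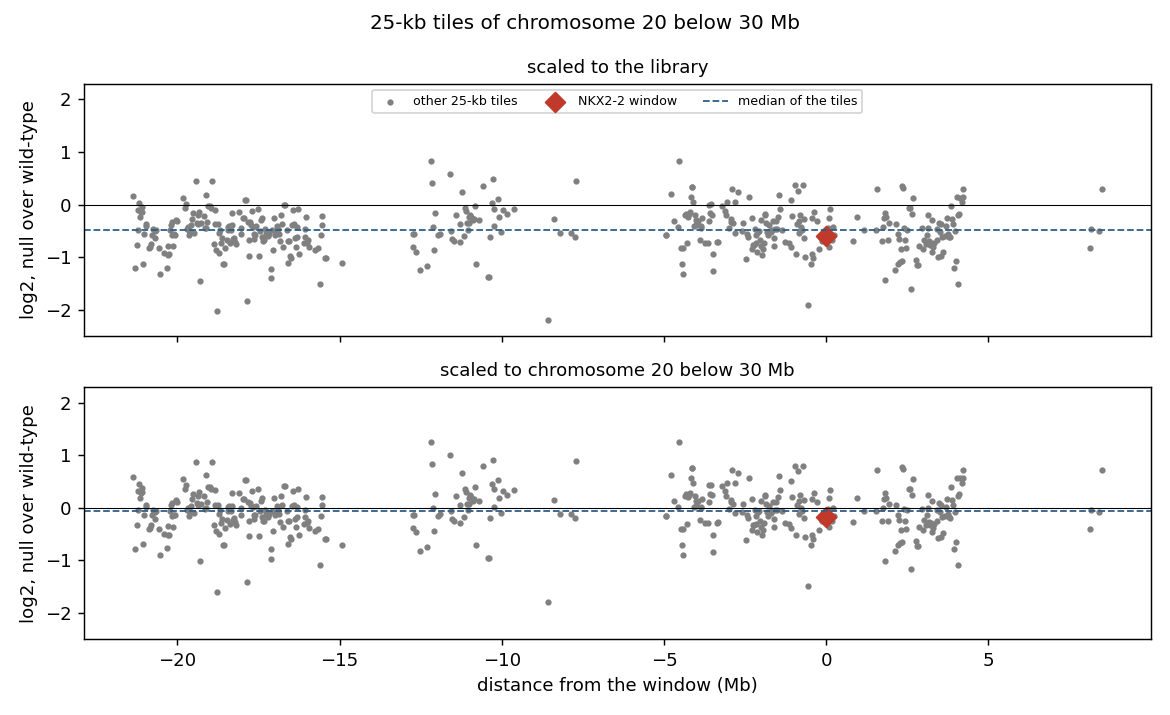
Log2 change (STAG2-null over wild-type) of each 25-kb tile of chromosome 20 below 30 Mb against its distance from the NKX2-2 window in Mb, scaled to the library (top) and to the region (bottom); grey points are tiles, the diamond is the window and the dashed line the median. The window, at -0.60 and -0.17, lies a little below the medians of -0.48 and -0.05.

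Contacts next to the window that did not touch it were lower as well. The 514 such pairs within 1 Mb held 247 and 255 PETs in STAG2-null 1 and 2 and 327 and 372 in wild-type 1 and 2. Their means were 363.1 ± 0.0206 and 490.8 ± 7.24 normalised PETs (SD, n = 2), a log2 ratio of -0.43. For every 100 of these PETs the window held 53.8 and 47.5 in STAG2-null and 54.7 and 58.6 in wild-type libraries. STAG2-null 1 was thus close to wild-type 1 on this measure, and STAG2-null 2 was the lowest.

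The window was made of 2 anchors, which together formed all 108 pairs. The broad one, chr20:21481110-21505111, spans 24.0 kb and is wider than all but 81 (0.101%) of the 79850 anchors, whose median width was 2342 bp. It held 616 PETs in 88 pairs, and 0.834% of the 60425 anchors tested held more. Per kb of anchor it held 25.7 PETs, against a median of 22.5, so its large total goes with its width. Its counts were 127 and 114 PETs in STAG2-null 1 and 2 and 166 and 209 in wild-type 1 and 2. On the library scale the groups did not overlap, and how many of all anchors lie apart in this way was not counted. The anchor fell by 0.60 ± 0.15 on the log2 scale (adjusted p = 0.0177 in edgeR), where 0.875% of anchors were called and 0.503% called lower. Scaled to the region it stood at -0.16 ± 0.13 (adjusted p = 0.804 in edgeR), where 0.0149% of anchors were called. On the library scale the adjusted p of this anchor in DESeq2 was 0.99996. The library-scale call was lost without any 1 of the 4 libraries (log2 -0.69 to -0.50, adjusted p from 0.148 to 0.506 in edgeR), in DESeq2 (-0.59, unadjusted p = 0.00542) and where pairs under 20 kb were left out (-0.56, adjusted p = 0.181 in edgeR). The unadjusted p was under 0.05 in each of these, and the log2 change was of similar size.

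The smaller anchor, chr20:21477886-21480175, covers 2289 bp and reaches into the window by its end. It held 13 and 18 PETs in STAG2-null 1 and 2 and 25 and 22 in wild-type 1 and 2, in 21 pairs. Its log2 change was -0.56 ± 0.34 (adjusted p = 0.537 in edgeR), and -0.12 ± 0.34 relative to the region. On the library scale the groups did not overlap, again with no share over all anchors counted. The standard error is more than that of the broad anchor because only 78 PETs stand behind the value. The pair that joins both anchors, 14.1 kb apart, held 7, 11, 12 and 13 PETs in the library order used throughout (STAG2-null 1 and 2, then wild-type 1 and 2).

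The 108 pairs reached 87 partner anchors outside the window, 27 at higher and 60 at lower coordinates. The farthest lay 1934 kb away on the higher and 1985 kb on the lower side, near the longest distance of any pair in the series, 1999.99 kb. Counts per pair were low. A single PET stood behind 42 pairs, 55 pairs were seen in 1 library, and 24 were seen in all 4.

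The nearest partners on the higher side took the most PETs. The 8 anchors up to 120 kb away on that side held 265 PETs, 40.7% of the window's total, with 57, 47, 73 and 88 PETs by library. Every deposited anchor of that stretch had a contact with the window. The matching stretch on the lower side has 3 deposited anchors, which held 23 PETs within 60 kb (5, 4, 9 and 5 by library) and 28 from 60 to 120 kb (4, 7, 6 and 11). Per deposited anchor, the higher side held 44.5 PETs within 60 kb and 21.8 from 60 to 120 kb, and the lower side 23.0 and 14.0. Among partners outside the window, the higher side is thus favoured per anchor as well as in total. This comparison was pooled over the 4 libraries and chosen after the values were seen. It leaves out the 43 PETs between the broad anchor and the smaller one on its lower side, which count as inside the window. By midpoints in 25-kb tiles, the tile 25 kb away held 61 PETs on the lower and 38 on the higher side. Up to 120 kb on the higher side the means were 75.4 ± 11.9 and 113 ± 2.96 normalised PETs (STAG2-null and wild-type, SD, n = 2), a log2 ratio of -0.58 with groups that did not overlap. Relative to the region the ratio was -0.15 and the groups overlapped.

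The partner with most PETs was chr20:21551027-21553735, whose midpoint lies 59.3 kb from that of the broad anchor. This pair held 19 and 10 PETs in STAG2-null 1 and 2 and 21 and 24 in wild-type 1 and 2. STAG2-null 1 was close to the wild-type libraries, and STAG2-null 2 was the lowest. The means were 21.1 ± 9.68 and 31.6 ± 0.363 normalised PETs (SD, n = 2), and the log2 change was -0.67 ± 0.36 (adjusted p = 0.555 in edgeR). The 2 are scaled differently. The fit of pairs uses TMM factors taken over pairs, 0.950 to 1.054 by library, whereas normalised PETs use those of tiles, 0.996 to 1.006. The other contacts of this partner, with anchors outside the window, held 27, 20, 23 and 26 PETs, a log2 ratio of -0.01 by normalised PETs.

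Right beside it, chr20:21554334-21558190 at 63.2 kb held 8, 3, 9 and 15 PETs with the broad anchor. It had the lowest value of the tested pairs, -1.15 ± 0.53 (unadjusted p = 0.030, adjusted p = 0.440 in edgeR), and -0.64 relative to the region. Its other contacts stood at -0.70. At 42.5 kb, chr20:21534632-21536520 held 8, 5, 10 and 11 PETs (-0.73 ± 0.53), and its other contacts stood at -0.86. At 17.6 kb, chr20:21509760-21511681 held 5, 9, 10 and 14 PETs (-0.81 ± 0.50), with other contacts at -0.54. These 3 partners were thus lower in their remaining contacts too, as values with no test.

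The other partners with enough PETs for a test were chr20:21593334-21597324 at 102 kb, with 8, 4, 6 and 12 PETs (-0.62 ± 0.56), and chr20:21544035-21545465 at 51.6 kb, with 5, 7, 9 and 6 PETs (-0.36 ± 0.59). In both, the genotypes overlapped. Their other contacts stood at -0.12 and -0.02.

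Together with the pair inside the window (-0.52 ± 0.47), 7 pairs reached the 20 PETs set for a test, and they held 43.2% of the window's PETs. The other 101 pairs were not tested singly. All 7 had a value below 0, with a median of -0.67, against a median of -0.04 and 50.8% below 0 over 11872 tested pairs. Of 162 tested pairs of the region, 74.7% were below 0, with a median of -0.37. The groups lay apart in 5 of the 7, as did 17.5% of all tested pairs with STAG2-null lower. None of the 7 was called by edgeR or by DESeq2 (0 unadjusted), where edgeR called 0.194% of all pairs in either direction and 0.11% as lower. In edgeR 1 passed an unadjusted p of 0.05, as did 4.75% of all pairs as lower. Relative to the region 5 of the 7 were below 0 and their median was -0.16, with 0.0505% of all pairs called. This scale moves the median of all tested pairs from -0.04 to 0.11 and that of the region's tested pairs from -0.37 to 0.14.

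**Figure D3:**
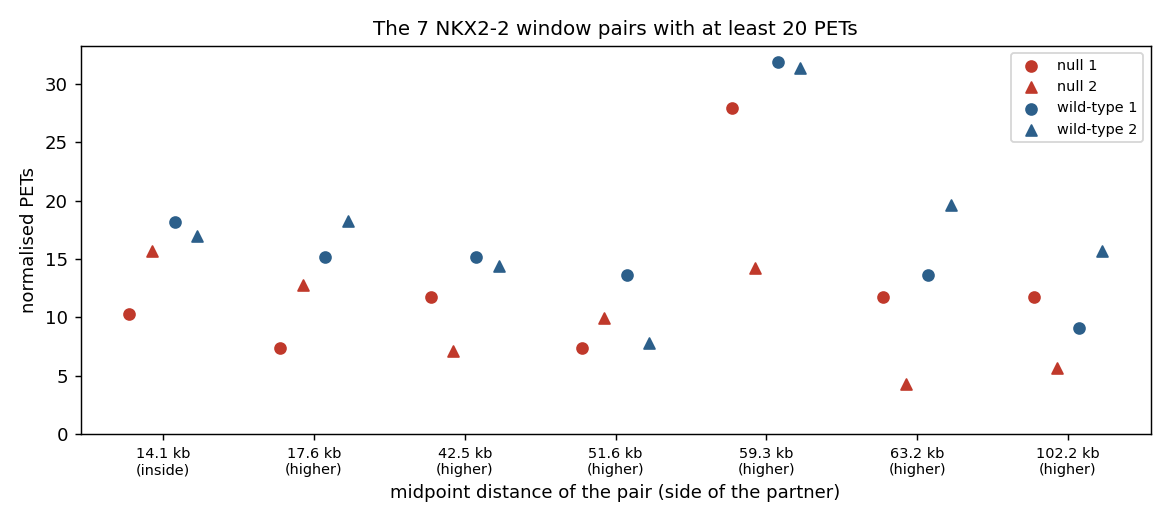
Normalised PETs (per 1000000 library PETs after TMM scaling with the factors of the tiles) in each library for the 7 window pairs with at least 20 PETs, ordered by midpoint distance in kb; red is STAG2-null, blue wild-type, and circles and triangles are replicates 1 and 2. The pair at 59.3 kb holds the most PETs in the wild-type libraries, and red and blue points overlap in the pairs at 51.6 and 102.2 kb.

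A second group of partners lay far away on the lower side. Between 600 and 850 kb, 18 of the 19 deposited anchors contacted the window, from chr20:20657115 to 20849102, and they held 133 PETs, 20.4% of the window's total. The counts by library were 28, 25, 33 and 47. The means were 38.4 ± 3.94 and 55.7 ± 8.0 normalised PETs (STAG2-null and wild-type, SD, n = 2), with a log2 ratio of -0.54, and -0.11 relative to the region, where the groups overlapped. No partner dominated this stretch. The highest pair, with chr20:20839909-20842506 at 652 kb, held 3, 4, 5 and 6 PETs, and that with chr20:20712508-20718986 at 777 kb held 3, 4, 1 and 7. The 4 deposited anchors at the same distance on the higher side held 4 PETs in all. Per deposited anchor this is 7 PETs on the lower and 1 on the higher side, pooled over the 4 libraries.

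Between these groups each stretch held fewer PETs in total than either group. Per deposited anchor, the lower side held 9.5 PETs from 120 to 300 kb, more than the 7 from 600 to 850 kb. It held 5.14 from 300 to 600 kb, and the higher side held 2.63 from 120 to 300 kb. From 120 to 300 kb the lower side held 9, 6, 12 and 11 PETs, led by chr20:21215224-21217890 at 277 kb (3, 2, 6 and 6). Its log2 ratio was -0.58, and -0.15 relative to the region, where the groups overlapped. The higher side held 3, 1, 6 and 11 at that distance, a log2 ratio of -2.01. Relative to the region this was -1.59, with no overlap between the groups on either scale. From 300 to 600 kb the lower side held 5 and 5 PETs in STAG2-null 1 and 2 against 16 and 10 in wild-type 1 and 2, a log2 ratio of -1.37, and -0.93 relative to the region with no overlap between the groups. The higher side, with 2 deposited anchors at that distance, held 0 PETs. Beyond 850 kb the lower side held 9, 14, 7 and 17 PETs (log2 ratio 0.02) and the higher side 4, 1, 4 and 4. The bounds of these stretches were set after the profile was seen, so the values are descriptions without a test. Groups also lay apart, with STAG2-null lower, in 22.1% of all 25-kb tiles on the library scale. No such share was counted for stretches or relative to the region. The ratio of -1.59 rests on 3 and 1 PETs in the STAG2-null libraries. In the stretches other than those at -1.59 and -0.93, the groups overlapped relative to the region.

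**Figure D4:**
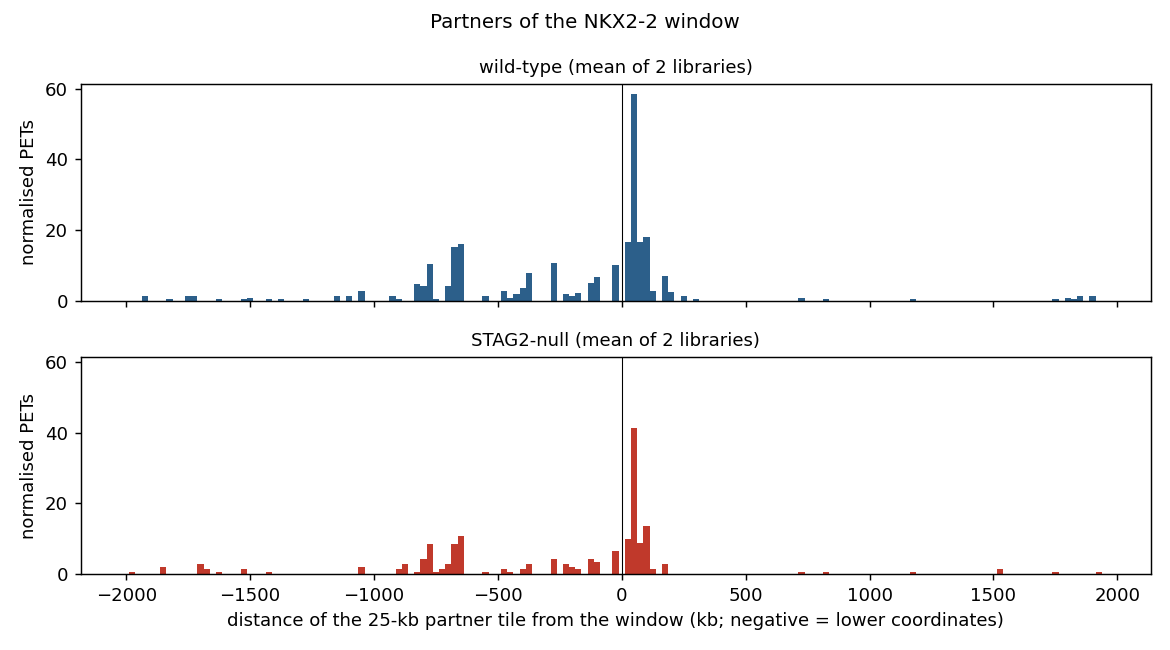
Mean normalised PETs (2 libraries each) between the NKX2-2 window and each 25-kb partner tile, against the distance in kb, for wild-type (top) and STAG2-null cells (bottom). Both genotypes show the highest bar at 50 kb on the higher side and a second group of bars around 650 to 800 kb on the lower side.

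Partners were also summed into 25-kb tiles by the midpoints of their anchors, which places the smaller anchor in the next tile on the lower side. The window had 8 tile pairs with at least 20 PETs, of which those 25 and 75 kb away on the higher side hold the same PETs as the single pairs at 17.6 and 63.2 kb. The highest, 50 kb on the higher side, held 32, 22, 40 and 41 PETs, with means of 39.2 ± 11.1 and 57.1 ± 5.04 normalised PETs (SD, n = 2) and no overlap between the groups. Its log2 change was -0.54 ± 0.28 (unadjusted p = 0.0485, adjusted p = 0.476 in edgeR). The tile 75 kb away on that side held 8, 3, 9 and 15 PETs (-1.07 ± 0.52). Those at 25 and 100 kb stood at -0.73 ± 0.50 and -0.51 ± 0.47. On the lower side the tiles 25, 650, 675 and 775 kb away stood at -0.39 ± 0.39, -0.57 ± 0.49, -0.88 ± 0.54 and -0.40 ± 0.59.

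All 8 tile pairs were below 0, with a median of -0.56, against a median of 0.04 and 49.0% below 0 over all tested tile pairs and 75.5% below 0 among 278 of the region. The groups did not overlap in 7 of the 8, where 20.7% of all tile pairs lay apart with STAG2-null lower. None was called in edgeR or in DESeq2 (0 unadjusted), where edgeR called 0.22% of all tile pairs in either direction and 0.102% as lower. In edgeR 2 passed an unadjusted p of 0.05, as did 5.2% of all tile pairs as lower. Relative to the region 6 of 8 were below 0 and the median was -0.12, with 0.00423% of all tile pairs called. Tile pairs and anchor pairs count the same PETs, so they are not separate support.

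The distances of the window's contacts differed from those of its region more than they differed between genotypes. Contacts of 50 to 100 kb made up 24.3% of its PETs, against 13.0% in the region and 12.5% over all pairs. Contacts of 500 to 1000 kb made up 22.9%, against 11.2% and 10.99%. Fewer were under 50 kb, at 21.2% against 37.4% and 35.2%, and fewer at 200 to 500 kb, at 10.8% against 18.4% and 19.9%. The wide anchor limits how close a midpoint can lie, and its part in the low share under 50 kb was not tested. In each of the 4 libraries the window's shares at 50 to 100 and at 500 to 1000 kb were above those of the region, and the shares under 50 and at 200 to 500 kb were lower.

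Between genotypes the share of long contacts was close. Contacts of at least 200 kb made up 42.9% and 40.5% of the window's PETs in STAG2-null 1 and 2 and 39.7% and 42.7% in wild-type 1 and 2. The means were 41.7 ± 1.67% and 41.2 ± 2.12% (SD, n = 2), a difference of 0.514 percentage points (two-sided exact permutation p = 0.667). In the region the means were 35.6 ± 0.115% and 35.0 ± 0.304%. Within the long contacts, the share of 200 to 500 kb was 9.77% and 7.44% in STAG2-null against 13.4% and 11.01% in wild-type libraries. The share of 500 to 1000 kb ran the other way, at 25.6% and 23.1% against 21.2% and 22.5%. Both sets lay apart by genotype, rest on between 9 and 49 PETs per library, and were picked out of 6 distance classes after their values were seen. At 500 to 1000 kb the genotypes also lay apart in the region (11.5% and 11.7% against 11.1% and 10.7%). They did so over all pairs too (11.5% and 11.1% against 10.5% and 10.8%). At 200 to 500 kb they lay apart in the region (18.31% and 17.81% against 18.34% and 18.78%) and overlapped over all pairs.

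**Figure D5:**
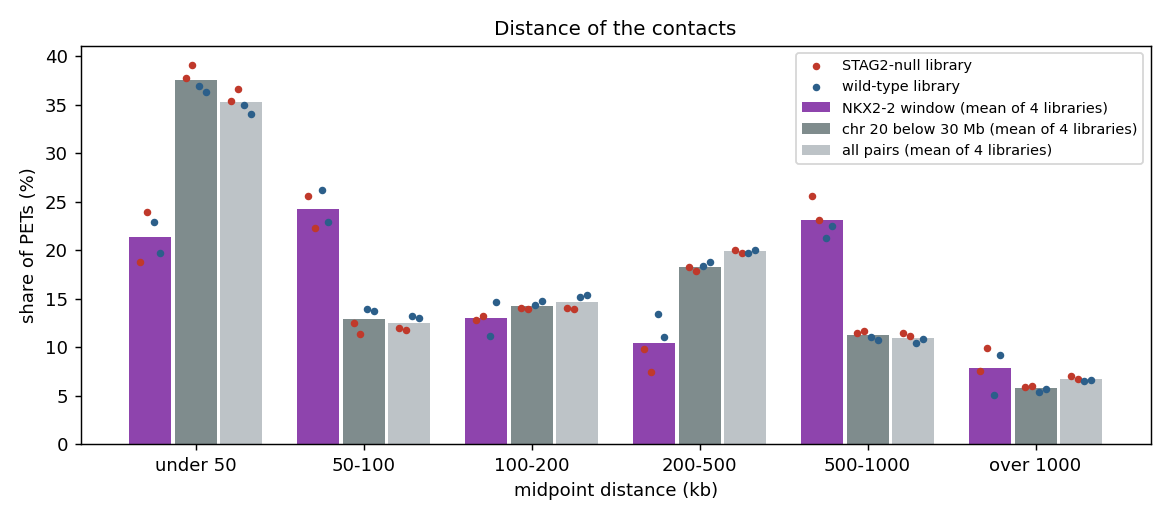
Share of PETs (%) by midpoint distance (kb) for the NKX2-2 window, chromosome 20 below 30 Mb and all pairs; bars are means of the 4 libraries and points are single libraries (red STAG2-null, blue wild-type). The window's bars are higher than the others at 50 to 100 and 500 to 1000 kb and lower under 50 and at 200 to 500 kb.

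The balance between sides was also close. Of the PETs with a partner outside the window, 47.6% and 55.5% in STAG2-null 1 and 2 and 49.7% and 49.3% in wild-type 1 and 2 went to lower coordinates. The means were 51.5 ± 5.54% and 49.5 ± 0.306% (SD, n = 2), with a two-sided exact permutation p of 1. The STAG2-null libraries lay on either side of the wild-type pair.

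Pairs seen in a single genotype were thin. There were 25 with PETs in STAG2-null libraries alone, of at most 3 PETs each, and 38 in wild-type libraries alone, of at most 5. The latter included chr20:21657372-21659856 at 166 kb on the higher side, with 0, 0, 3 and 2 PETs. At this depth such pairs cannot be told from pairs missed by counting.

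Of the window's pairs, 19 were among the 22680 high-confidence loops of the authors' deposited table, and 0 were among the 650 differential loops, which are 2.87% of the high-confidence set. The summed PETs of all 19 equalled those of the per-library files. By normalised PETs 18 of the 19 had a lower mean in STAG2-null cells. Among the 162 pairs of the region with at least 20 PETs, 74.7% had a fitted log2 change below 0. The 19 include loops under 20 PETs and were judged by means, so set and measure differ. The share of all high-confidence loops with a lower mean was not counted. In 8 of the 19 both STAG2-null libraries lay below both wild-type libraries, as did 18.1% of all high-confidence loops. The authors' deposited table of differential loops holds 10 loops on chromosome 20 below 30 Mb, of which it gives 9 as stronger in wild-type cells. The nearest of these lies 1928 kb from the window on the lower side, at chr20:19562835-19566494, with a deposited log2 fold change of 1.67 (wild-type over mutant) and an adjusted p of 0.0424 in the authors' deposited table.

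Promoter contacts of related genes could be read for few genes, because genes were placed through the authors' deposited table of differential loops, which names those at changed loops. Neither the 9 neighbours of NKX2-2 nor the 20 ventral neural and homeobox genes listed had a placed promoter. Of 24 genes known to be activated by EWS-FLI1, 4 did. CAV1, the caveolin-1 gene, was called higher in STAG2-null cells, with 293, 342, 200 and 218 PETs (log2 0.64 ± 0.13, adjusted p = 0.00241 in edgeR), and stood at 0.26 ± 0.11 relative to its own 30 Mb bin (adjusted p = 0.521 in edgeR). The glycosyltransferase gene UGT3A2 (0.62 ± 0.24), the orphan nuclear receptor gene NR0B1 (0.51 ± 0.30) and the ETS repressor gene ETV6 (0.28 ± 0.17) were not called. The list's median was 0.57, and 21.6% of the 162 genes with a placed promoter were called, out of a table made of changed loops. All 4 values lie above 0 and that of the NKX2-2 broad anchor lies below it, and the difference between them was not tested.

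Of the 162 placed genes, those whose pattern over the 4 libraries was most like that of the window were NACC2 and C9orf62 on chromosome 9 and RUFY4 on chromosome 2, at Euclidean distances of 0.0841, 0.138 and 0.145 between centred log2 normalised PETs. NACC2, which encodes a BTB-domain transcriptional repressor, held 343, 295, 451 and 521 PETs, a log2 change of -0.57 ± 0.12. C9orf62 stood at -0.66 ± 0.13 and RUFY4 at -0.70 ± 0.17. With 4 libraries, likeness here means mainly a similar difference between genotypes, and it was taken on the library scale alone. Among the genes next in likeness, VAV2, QSOX2, ASS1 and CERCAM also lie on chromosome 9 and MAFA on chromosome 8.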

How the data were processed

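Per the labels' protocols, fixed A673 chromatin was digested, ligated, sonicated and precipitated for SMC1, and libraries were made with Tn5. Per the submitters' processing notes, HiC-Pro and the hg19 build were used, with no version named. The authors deposited a PET count per anchor pair and library with a p-value per pair, a table of high-confidence loops with counts and a false discovery rate, and a table of differential loops with log2 fold changes. For the loop caller, settings are not given in the sources used. Deposited p-values served only to describe loops.

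Counts were summed per anchor, per 25-kb tile (every pair with an anchor overlapping it, once) and per pair of tiles, and tested where at least 20 PETs were present. The main test was edgeR's quasi-likelihood test (edgeR 4.0.16, R 4.3.3) on genotype, with TMM scaling and Benjamini-Hochberg adjustment over all features of a kind. TMM factors were taken over the tested features of each kind, and normalised PETs use those of the tiles throughout. A feature was called where its adjusted p was under 0.05. A second fit replaced TMM by the total of each 30 Mb bin. DESeq2 1.42.0 was an alternative. The code was tested on simulated data. Errors are SD over libraries or SE of the fit. Sequences and gene order came from RefSeq (GRCh38.p14). Named likeness took the 3 placed genes nearest in centred log2 normalised PETs, and named list genes were all that had a promoter at an anchor with a single gene. The window, lists and tests were chosen with earlier results of these data known.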

Additional observations from a re-analysis of the deposited data

How the results depend on the processing

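The window's log2 change stayed below 0 in all 13 alternatives. It was no longer past the threshold when scaled per 30 Mb bin (-0.17) or per 10 Mb bin (-0.13), or in DESeq2 (-0.60, adjusted p = 0.0672), and it ran from -0.69 to -0.51 with 1 library left out, no longer past it without STAG2-null 2, wild-type 1 or wild-type 2. Relative to the region, 11 alternatives gave -0.24 to -0.09 with adjusted p between 0.587 and 1 in edgeR or DESeq2. The number of window anchors called went from 1 to 0 with scaling per 30 Mb or 10 Mb bin, in DESeq2 and with pairs at least 20 kb apart, and was 0 to 0 with 1 library left out. No window pair or tile pair was called in any of 13 alternatives. Tiles called over the genome went from 1155 to 58 and 34 with scaling per 30 Mb and 10 Mb bin, 144 in DESeq2, 578 with pairs at least 20 kb apart, and 0 to 1079 with 1 library left out (0 without STAG2-null 2, with 3559 unadjusted, 149 without wild-type 1 and 134 without wild-type 2). The causes were not tested. With the replicate block, the window stood at -0.60 (adjusted p = 0.00711 in edgeR) and 1043 tiles were called, and no window call changed. Same-numbered libraries did not deviate together over the tested tiles (correlation of differences 0.00383). Tiles with as few as 20 PETs entered this value, where counting error can hide a shared deviation. It therefore cannot decide whether same-numbered libraries were prepared together, which the labels do not say. The genotype difference in the share of long contacts ran from -0.984 to 2.01 percentage points with 1 library left out and that of lower-side contacts from -1.87 to 5.97, so the sign of both turned with the libraries used. Depth limits single pairs most, since 101 of 108 held under 20 PETs.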

Other observations

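Among the 33 other tested tiles within 1 Mb of the window, leaving out the next tile on either side, into which the window's own anchors reach, 30 had a log2 change below 0 on the library scale, with a median of -0.49. Totals of these tiles include their contacts with the window. Of the 33, 1 was called lower, against 2.9% of all tiles called in either direction and 44 of 445 called lower in the region. This tile lies 650 kb away on the lower side. It held 25 and 28 PETs in STAG2-null 1 and 2 and 48 and 61 in wild-type 1 and 2 over all its contacts, a log2 change of -0.99 ± 0.25 (adjusted p = 0.00715 in edgeR). Relative to the region it stood at -0.56 ± 0.25 (adjusted p = 0.450 in edgeR). The tile 550 kb away on that side had the lowest value, -1.91 ± 0.67, with 2, 3, 12 and 8 PETs (adjusted p = 0.0975 in edgeR). Both were picked after their values were seen. Relative to the region, 19 of the 33 tiles were below 0, with a median of -0.06.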
